A study of Mus musculus with 6 samples.

Results

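MHC class II molecules display peptides from engulfed material to CD4+ T cells, and 7 mouse genes of this route were followed here in hippocampal RNA. They are the rows of the deposited expression table named Cd74, H2-Aa, H2-Ab1, H2-Eb1, H2-DMa, H2-DMb1 and Ciita, which is 7 of the 54532 genes listed. Each symbol matched 1 row.

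The study asked how epilepsy-associated changes in SLC1A2, the gene of the glutamate transporter GLT-1, alter cells and the brain. The TG mice carry both the G82R and the L85P change in their own Slc1a2 gene, placed there by CRISPR/Cas9 in C57BL/6N embryos, and founders were mated with C57BL/6 mice. They are therefore knock-in mice in which the altered gene keeps its own promoter, and no separate promoter drives a transgene. The WT mice are littermates without the changes. RNA was sequenced from the hippocampus of 3 WT and 3 TG samples, named WT1, WT2, WT3, TG1, TG2 and TG3 after their labels. The labels name no treatment other than genotype. The age and zygosity of the sequenced mice are not given in the sources used here. Nor is it said whether each library came from 1 animal, so p-values measure the spread between these samples. The paper's mice were of both sexes, and the paper does not say which were sequenced. Each library held 976 to 1187 reads of the Y chromosome gene Ddx3y and 0 to 6 reads of Xist, the pattern of male tissue.

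A class II molecule pairs an alpha with a beta chain. Cd74, the invariant chain, escorts the pair and fills its groove, and the H2-DM heterodimer later exchanges the last Cd74 fragment for a peptide. Ciita is the coactivator that switches the whole group on. It does not bind DNA itself but is recruited by factors seated on the X and Y boxes of class II promoters, and interferon gamma is its best known inducer. In the healthy brain, parenchymal microglia carry little class II, whereas border macrophages, dendritic cells and B cells carry more.

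The stretch of promoter that holds the X and Y letters is shown for 3 genes, because these letters were found upstream of the start sites of an alpha, a beta and a DM chain. Capitals mark TNGNAACT, letters of the X box, and TGATTGG, letters of the Y box, each searched on both strands. The stretches come from RefSeq (GRCm38.p6), from windows that run from 250 bases before to 50 bases after each start, and read 5′ to 3′ on the gene's strand.
H2-Aa: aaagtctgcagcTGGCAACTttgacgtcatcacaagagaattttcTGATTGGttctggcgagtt
H2-Eb1: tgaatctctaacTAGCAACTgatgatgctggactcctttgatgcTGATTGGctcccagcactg
H2-DMb1: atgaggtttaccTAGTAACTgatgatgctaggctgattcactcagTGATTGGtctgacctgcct

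The H2-Aa stretch lies at chr17:34287855-34287918 on the minus strand, the H2-Eb1 stretch at chr17:34305762-34305824 on the plus strand and the H2-DMb1 stretch at chr17:34153083-34153146 on the plus strand. The first base of the X letters is 83, 93 and 96 bases before the start, in that order, and the first base of the Y letters is 50, 61 and 63 bases before it. The gap between the letters was 25, 24 and 25 bases. Of 32851 promoter windows, 12.29% held the X letters, 7.817% held the Y letters, and 14 windows (0.04262%) held X and then Y on 1 strand within 40 bases. The letters were chosen from these promoters, so the match is a description. The windows of H2-DMa did not hold them. Windows were found for 4 of the 7 genes, and Cd74, H2-Ab1 and Ciita are the others. H2-DMb2, H2-Oa, H2-Ob and H2-Eb2, other class II genes, held the Y letters but not the X letters.

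All values are FPKM, the reads of a gene scaled to its length and to the size of the library, so that levels can be set side by side between genes. The reads on genes numbered 16081281 to 18751057 per library, and 3 reads on a gene of 1 kb are worth 0.160 to 0.190 FPKM. Groups were compared with limma on log2(FPKM + 0.1) over the 20952 genes whose mean FPKM reached 0.1, and p-values were adjusted by Benjamini-Hochberg over all of them. All 7 genes passed this filter. For genes of low FPKM the added 0.1 makes a fold change smaller than it is. The RNA level of Slc1a2 itself was 177 to 202 FPKM in WT and 207 to 222 FPKM in TG libraries, a gene-level value that cannot show the base changes. In bulk tissue, more cells of a type and more RNA per cell cannot be told apart.

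The classical chains and the invariant chain had higher means in the TG group at an unadjusted p under 0.05, whereas both DM chains and Ciita did not pass. Cd74, H2-Aa, H2-Ab1 and H2-Eb1 had log2 fold changes between 2.06 and 2.61 and unadjusted p-values under 0.05, which is 4 of 7 genes, beside 3.13% of all genes tested that were higher at this threshold. None of the 7 was lower, beside 2.78% of all genes. None passed at an adjusted p of 0.05, which 0.00955% of all genes (2 genes) did, so no class II gene was called by the adjusted limma test. The median log2 fold change of the 7 was 2.06, and that of all genes was -0.0020. In all, 111 genes (0.530%) had a log2 fold change of 2 or more, and all 4 of these class II genes are among them.

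**Figure D1:**
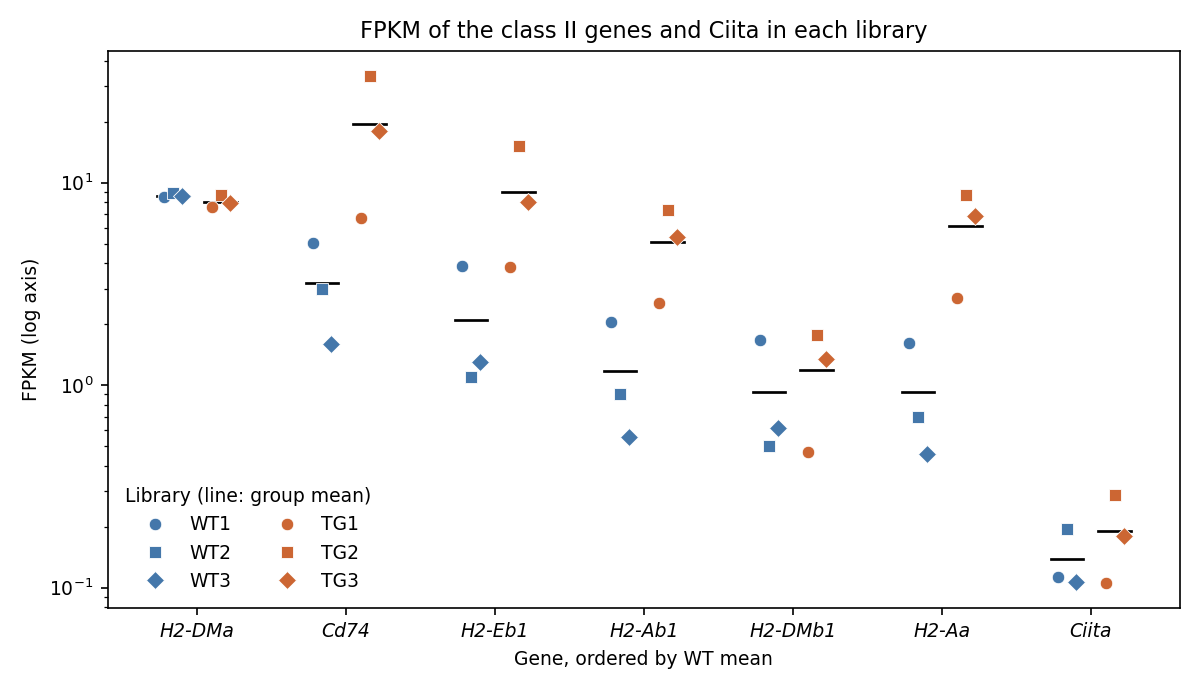
FPKM (log axis) of the 7 genes in each of the 6 libraries, ordered by WT mean, where a point is a library and the short line is the group mean. Cd74, H2-Aa and H2-Ab1 are higher in each TG library than in any WT library, H2-DMa sits between 7.55 and 8.87 FPKM throughout, and Ciita stays under 0.3 FPKM.

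H2-Aa encodes the alpha chain of I-A, the class II molecule that C57BL/6 mice place on the cell surface. WT1, WT2 and WT3 held 1.62, 0.694 and 0.456 FPKM of it, against 2.70, 8.72 and 6.88 FPKM in TG1, TG2 and TG3. Every TG library was above every WT library, with TG1 the lowest of the TG group and WT1 the highest of the WT group. The group means were 0.922 ± 0.613 and 6.10 ± 3.09 FPKM (SD, n = 3 each), and the log2 fold change was 2.61 with an SE of 0.527. The adjusted p was 0.786 and the unadjusted p 0.00147 (limma). The exact permutation test gave p = 0.1, the smallest 2-sided value that 3 against 3 libraries allow.

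H2-Ab1 encodes the beta chain that pairs with H2-Aa. It had 2.05, 0.908 and 0.555 FPKM in WT, against 2.55, 7.36 and 5.38 FPKM in TG. The groups did not overlap, but TG1 exceeded WT1 by less than the WT libraries differed among themselves. The log2 fold change was 2.08 (SE 0.506), from 1.17 ± 0.781 to 5.10 ± 2.42 FPKM, with an unadjusted p of 0.00411 and an adjusted p of 0.786 (limma).

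H2-Eb1 encodes the beta chain of I-E, a second class II molecule. C57BL/6 mice lack a working alpha chain for it, and the table names that gene H2-Ea-ps and lists it at 0 reads in all 6 libraries. For H2-Eb1 the WT libraries held 3.88, 1.10 and 1.31 FPKM, against 3.84, 15.1 and 7.997 FPKM in TG. The groups overlapped, since TG1 was just below WT1, while TG2 and TG3 were above all WT libraries. Its log2 fold change was 2.06 (SE 0.586), with an unadjusted p of 0.00920, an adjusted p of 0.786 (limma) and an exact permutation p of 0.2.

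Cd74 (ENSMUSG00000024610) lies outside the H2 complex, on chromosome 18 between 60803848 and 60812646 on the plus strand, and was the most abundant of the 7 genes in the TG mean. Its FPKM was 5.06, 2.99 and 1.59 in WT and 6.68, 33.6 and 18.1 in TG, which rests on 42 to 132 reads in the WT and 149 to 850 reads in the TG libraries. TG1 was again close to WT1, and TG2 stood far above the rest. The means were 3.21 ± 1.75 and 19.5 ± 13.5 FPKM, and the log2 fold change was 2.42 with a 95% interval of 0.99 to 3.86. The unadjusted p was 0.00502 and the adjusted p 0.786 (limma).

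The DM chains, which edit the peptide cargo, did not pass an unadjusted p of 0.05. H2-DMa had an FPKM of 8.47, 8.87 and 8.59 in WT and 7.55, 8.67 and 7.90 in TG. These 6 values form 1 narrow range, with TG1 and TG3 below every WT library. Its log2 fold change was -0.11, with a 95% interval of -0.29 to 0.08 and an adjusted p of 0.789 (limma). That interval holds no rise of the size seen for the classical chains. For H2-DMb1 the interval was wider, because its FPKM ran over 1.68, 0.5003 and 0.611 in WT and 0.468, 1.77 and 1.34 in TG. WT1 was close to TG2, and TG1 was the lowest of all. The log2 fold change was 0.34 (95% interval -0.95 to 1.63, adjusted p = 0.884, limma). It was -0.011 without TG2, 0.036 without WT2 and 0.85 without TG1, so its sign was not resolved. As differences from the WT mean of log2(FPKM + 0.1), H2-DMb1 lay above 0 in WT1, TG2 and TG3 and below 0 in WT2, WT3 and TG1.

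Ciita, the coactivator, had the lowest FPKM of the 7 genes. Its FPKM was 0.113, 0.195 and 0.106 in WT and 0.106, 0.287 and 0.180 in TG, from 16 to 49 reads. TG2 was highest, WT2 was above TG3, and TG1 was level with WT3. The count of TG1 (16 reads) had an exact Poisson 95% interval of 9.15 to 26.0 reads and that of TG2 (49 reads) one of 36.3 to 64.8 reads. The log2 fold change was 0.26 with a 95% interval of -0.69 to 1.21 (adjusted p = 0.878, limma). The Ciita locus overlaps Dexi on the opposite strand over 25888 bases. Dexi had 10.8 to 13.8 FPKM, and 1.46% of the 50-base stretches of Ciita transcripts also occur in those of Dexi. Since the counting is not stated to use strand, reads of the pair may not be fully separated.

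**Figure D2:**
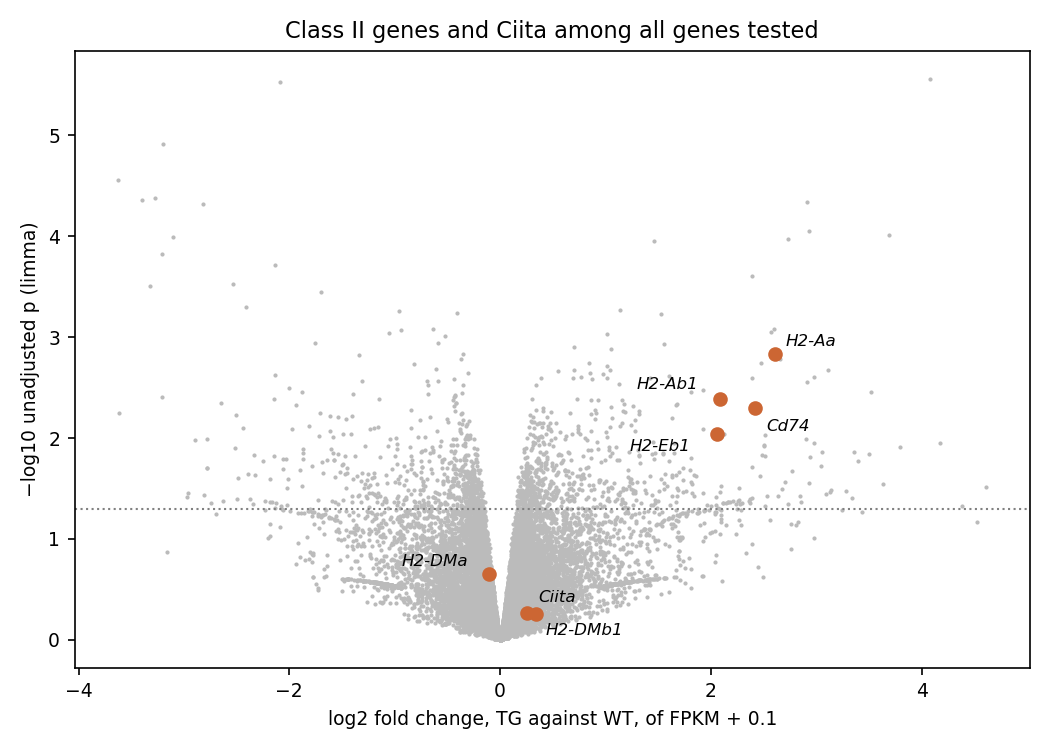
Log2 fold change of FPKM + 0.1, TG against WT (horizontal axis), against −log10 of the unadjusted limma p (vertical axis) for the 20952 genes tested in grey, with the 7 class II genes in orange. The dotted line marks an unadjusted p of 0.05. H2-Aa, Cd74, H2-Ab1 and H2-Eb1 sit at log2 fold changes of 2.06 to 2.61 above the line, and H2-DMa, H2-DMb1 and Ciita lie below it near 0.

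By position, 5 of the genes lie in the H2 complex on chromosome 17 in GRCm38 coordinates of the deposited table. H2-DMa (ENSMUSG00000037649) spans 34135182 to 34139101 and H2-DMb1 (ENSMUSG00000079547) spans 34153072 to 34160230. H2-Ab1 (ENSMUSG00000073421) spans 34263209 to 34269418, H2-Aa (ENSMUSG00000036594) 34282744 to 34287827 on the minus strand, and H2-Eb1 (ENSMUSG00000060586) 34305877 to 34316199. The printed H2-Aa and H2-Eb1 stretches lie outside these spans, upstream, and the H2-DMb1 stretch lies inside its gene's span because RefSeq places the start further downstream. Ciita (ENSMUSG00000022504) spans 10480059 to 10528418 on chromosome 16, so 2 of the 3 genes that were not separated are neighbours of the classical chains. No 50-base stretch of Cd74, H2-Ab1 or H2-Eb1 transcripts occurs in another gene, and 0.514% of those of H2-Aa do. H2-DMb1 shares 22.7% of its stretches with H2-DMb2, a near copy, so its reads are less certain. H2-DMb2 itself was low, at 0.0979 to 0.194 FPKM, and did not differ between the groups beyond their spread. H2-DMa shares 8.43% with Brd2.

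The order of the levels changed with the libraries. In the WT mean it ran H2-DMa, Cd74, H2-Eb1, H2-Ab1, H2-DMb1, H2-Aa and Ciita. H2-DMa was above every other gene in all 3 WT libraries and in TG1. From Cd74 to H2-Aa the WT means of neighbours differed by less than the larger of their SDs. In the TG mean the order was Cd74, H2-Eb1, H2-DMa, H2-Aa, H2-Ab1, H2-DMb1 and Ciita. There the neighbours from Cd74 to H2-Ab1 again differed by less than the larger of their SDs. Within libraries the order was tighter, as Cd74 exceeded H2-Eb1 in all 6 and Ciita was last in all 6.

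Ratios between 2 genes of the same library remove what moves both alike, and 9 pairs were compared, chosen after the values were seen. The ratio of the alpha to the beta chain, H2-Aa to H2-Ab1, was 0.789, 0.764 and 0.822 in WT and 1.06, 1.18 and 1.28 in TG. H2-Aa was thus below H2-Ab1 in every WT library and above it in every TG library. On log2(FPKM + 0.1), used for the differences and tests of all 9 pairs, the log2 ratios differed by 0.53. The exact permutation p was 0.1, the smallest possible, and 0.129 after adjustment over the 9 pairs. In WT2 and WT3 these ratios rest on 16 to 24 reads a gene. The ratio of Cd74 to H2-Aa overlapped between the groups, at 3.13, 4.30 and 3.49 in WT and 2.48, 3.86 and 2.62 in TG (exact permutation p = 0.5). That of H2-Eb1 to H2-Ab1 also overlapped, at 1.90, 1.21 and 2.36 in WT and 1.51, 2.05 and 1.49 in TG (exact permutation p = 0.9).

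Ratios of Cd74 and of H2-Aa to the DM chains and Ciita were higher in each TG library than in any WT library, TG1 included. Cd74 to H2-DMa was 0.598, 0.337 and 0.185 in WT and 0.885, 3.88 and 2.29 in TG. Cd74 to H2-DMb1 was 3.02, 5.97 and 2.60 in WT and 14.3, 19.0 and 13.5 in TG. Here TG1 lay with the other TG libraries, and its H2-DMb1 was the lowest of all 6. Cd74 to Ciita was 44.6, 15.3 and 14.9 in WT and 63.0, 117 and 100.3 in TG. The 3 ratios of H2-Aa to H2-DMa, H2-DMb1 and Ciita differed by 2.27 to 2.72 on the log2(FPKM + 0.1) scale. For each of these 6 pairs the groups did not overlap, with an exact permutation p of 0.1 and an adjusted value of 0.129. Both numerators, Cd74 and H2-Aa, were already higher in each TG library than in any WT library. The pairs reuse these numerators and are not independent results.

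**Figure D3:**
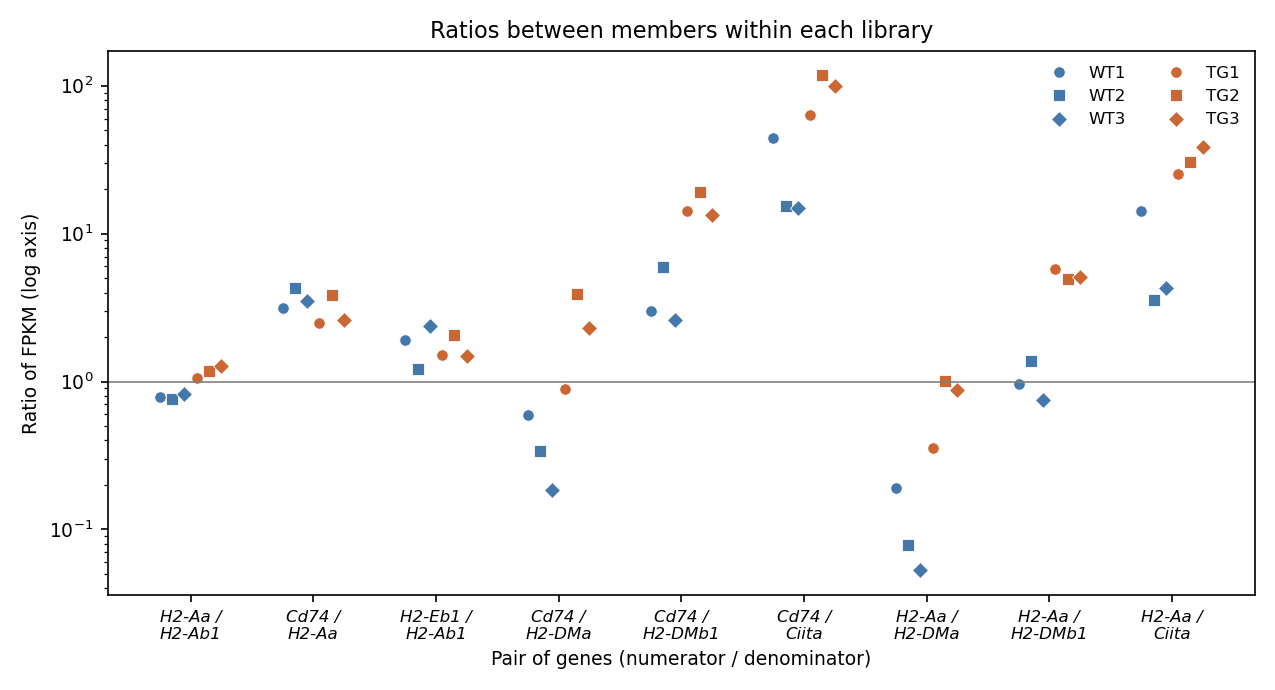
Ratio of the FPKM of 2 class II genes within each library (log axis) for the 9 pairs compared, where a point is a library and the grey line marks a ratio of 1. H2-Aa to H2-Ab1 lies below 1 in the 3 WT libraries and above 1 in the 3 TG libraries, and the 6 pairs with a DM chain or Ciita as denominator are higher in each TG library than in any WT library.

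Within each library Cd74, H2-Aa, H2-Ab1 and H2-Eb1 lay close together. As differences from the WT mean of log2(FPKM + 0.1), they lay at 0.78 to 1.08 in WT1, -0.66 to 0.04 in WT2 and -0.83 to -0.42 in WT3. In the TG group they lay at 1.06 to 1.62 in TG1, 2.73 to 3.49 in TG2 and 2.10 to 2.94 in TG3. TG1 was therefore nearer to WT1 than to the other TG libraries. Without TG1 the log2 fold changes were 3.05 for Cd74, 3.11 for H2-Aa and 2.56 for H2-Eb1, and without TG2 they were 1.89, 2.28 and 1.58, in the same order. For 3 of the 7 genes (Cd74, H2-Aa and H2-Ab1) all TG libraries were above all WT libraries, beside 6.35% of all genes tested.

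**Figure D4:**
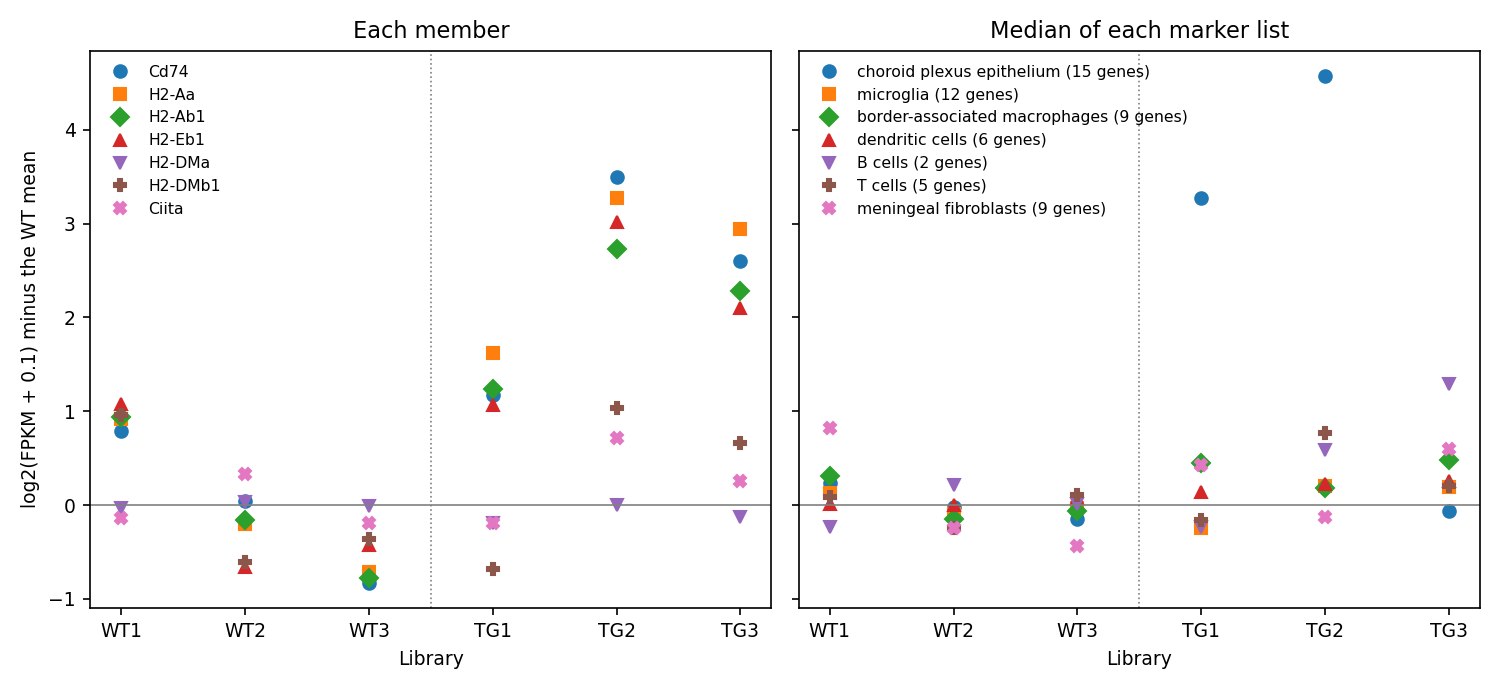
Difference of log2(FPKM + 0.1) from the WT mean in each library, for the 7 class II genes (left) and as the median of the tested genes of 7 marker lists (right). Cd74, H2-Aa, H2-Ab1 and H2-Eb1 are highest in TG2 and TG3, while the choroid plexus list is high in TG1 (3.27) and TG2 (4.57) but at -0.06 in TG3.

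The TG libraries also differed in choroid plexus RNA, from the secretory epithelium that lies beside the hippocampus. The 15 marker genes, led by Ttr, summed to 59.8 to 83.9 FPKM in WT and to 1223, 3861 and 67.3 FPKM in TG1, TG2 and TG3. At an unadjusted p under 0.05, 8 of the 15 were higher in TG (limma), beside 3.13% of all genes tested. Kcnj13, a potassium channel of this epithelium, had 0.511, 0.244 and 0.294 FPKM in WT and 4.98, 12.96 and 0.610 FPKM in TG. The sum of TG3 lay within the WT range. Above every WT library in all TG libraries, TG3 included, were 4 of the 15 markers (Kcnj13, Kl, F5 and Tmem72), beside 6.35% of all genes tested. The margin in TG3 was small, with 14, 55 and 21 reads of Kcnj13, F5 and Tmem72 against at most 12, 48 and 13 in WT. Folr1, Krt8 and Krt18 were lower in TG3 than in any WT library, at 0.217, 0.170 and 0.270 FPKM. The FPKM of TG3 was 18.1 for Cd74 and 6.88 for H2-Aa. TG3 alone against the 3 WT libraries, with its spread assumed to equal that of WT, gave log2 fold changes of 2.60 for Cd74, 2.94 for H2-Aa, 2.29 for H2-Ab1 and 2.10 for H2-Eb1. Their unadjusted p-values were 0.0234, 0.0185, 0.0436 and 0.0662, and the adjusted ones did not pass (limma). A fit with the mean of these markers as a covariate was added once the values were known. In it, H2-Eb1 had a log2 fold change of 1.67 and an unadjusted p of 0.0819 (limma). For Cd74, H2-Aa and H2-Ab1 the log2 fold changes were 2.08, 2.52 and 1.91, with unadjusted p-values of 0.0482, 0.0143 and 0.0358 (limma). All 4 adjusted p-values were 0.999. The sum of the markers was high in TG1 and TG2 only, so this fit cannot fully part the score from the group. The part of choroid plexus in the class II values was not tested.

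Markers of cells that carry class II were summed in each library. The 12 microglial markers summed to 111.9 to 126.0 FPKM in WT and 104.2 to 133.8 FPKM in TG. Of the 12, 1 (Csf1r) was higher at an unadjusted p under 0.05, beside 3.13% of all genes tested. For border-associated macrophages the 10 markers summed to 4.94 to 6.69 FPKM in WT and 6.48 to 7.43 FPKM in TG, and 1 of the 9 tested, Stab1, was higher at that threshold. The 10 dendritic cell markers, led by Flt3, summed to 3.13 to 3.49 FPKM in WT and 4.002 to 4.42 FPKM in TG. Those sums did not overlap, and 0 of the 6 tested passed an unadjusted p of 0.05. The share of gene lists with this order was not counted. Flt3 and Zbtb46, the most abundant of them, each overlapped between the groups. Of the 6 tested, 1 (Batf3) had all TG libraries above all WT libraries, beside 6.35% of all genes tested. The integrin Itgax, a dendritic cell marker too low to be tested, had 0.0338, 0 and 0.0778 FPKM in WT and 0.0789, 0.256 and 0.115 FPKM in TG. These values rest on 0 to 7 reads in WT and 6 to 22 reads in TG. The other untested markers of this list overlapped between the groups. Xcr1 had 0 to 2 reads in WT and 0 to 1 in TG, Ccr7 had 0 to 2 and 0 to 3, and Ccl22 had 0 to 4 and 3 to 9. Of the 6 tested, 5 had a log2 fold change above 0. That of Clec9a was -0.41, with 0.115, 0.132 and 0.178 FPKM in WT and 0.134, 0.0169 and 0.118 FPKM in TG.

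Lymphocyte markers were near the floor. The 7 B cell markers summed to 0.308 to 0.431 FPKM in WT and 0.290, 0.970 and 1.18 FPKM in TG1 to TG3. Ms4a1, a B cell surface protein, was at 0 in all WT libraries and at 0.0268 to 0.0306 FPKM in TG, which is 3 reads in each TG library. Pax5, from the same list and also too low to be tested, had 3 to 7 reads in WT and 0 to 8 reads in TG. The 8 T cell markers summed to 1.22 to 2.26 FPKM in WT and 1.24 to 3.33 FPKM in TG. The 8 markers of monocytes and neutrophils summed to 10.6 to 26.8 FPKM in WT and 7.70 to 22.3 FPKM in TG, with 1 of the 7 tested, Chil3, lower at an unadjusted p under 0.05. No listed marker was at 0 in every library. The part of any of these cells in the class II values was not tested. Hippocampal neuron markers (8 of 8 present) included none at an unadjusted p under 0.05, nor did the 5 blood markers. At that threshold, ependymal markers were lower in 3 of 6, endothelial markers were higher in 1 of 7 (Flt1), and meningeal fibroblast markers in 0 of 9. Of all genes tested, 3.13% were higher and 2.78% lower at that threshold.

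None of the other genes of class II presentation passed the test in either direction. Of 49 listed genes in 7 groups, 44 were tested, and 0 were higher and 0 lower, at an adjusted and also at an unadjusted p of 0.05 (limma). The shares of all genes at the unadjusted threshold are the 3.13% and 2.78% given above. The lowest unadjusted p was 0.0682, for Cd80, a co-stimulatory ligand that presenting cells show to T cells. Cd80 had 0.190, 0.184 and 0.144 FPKM in WT and 0.273, 0.301 and 0.434 FPKM in TG. Its TG libraries all lay above all WT libraries, which held for 1 gene of the 44, beside 6.35% of all genes tested. The group is thus not marked out by this count. The most abundant gene of its group, the class II receptor Lag3, had 2.70 to 3.62 FPKM in WT and 1.95 to 5.07 FPKM in TG.

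Among the other class II chains, H2-Oa and H2-Ob form a heterodimer that restrains H2-DM. H2-Oa had 0 to 0.613 FPKM in WT and 0.0962 to 0.548 FPKM in TG, and H2-Ob had 0.0858 to 0.334 and 0.1002 to 0.336 FPKM. For both genes the groups overlapped. The 3 tested genes of this group had a median log2 fold change of 0.25. The 8 genes that prepare peptides and cut Cd74, which are proteases, the reductase Ifi30 and the protease inhibitor Cst3, had a median of 0.11. In that group, Ctsl had the lowest p (9.24 to 10.96 FPKM in WT, 10.1 to 12.8 FPKM in TG, unadjusted p = 0.180, adjusted p = 0.789, limma). Cst3 was the most abundant, at 837 to 1163 FPKM in WT and 700 to 938 FPKM in TG.

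For the factors that sit on the X and Y boxes, the 8 genes listed had a median log2 fold change of 0.04. Nfya, a subunit of the Y box factor NF-Y, had 2.20 to 2.86 FPKM in WT and 2.63 to 3.16 FPKM in TG. Rfxap, a subunit of the X box factor RFX, had 14.2 to 17.9 FPKM in WT and 15.3 to 15.8 FPKM in TG. Along the route from interferon gamma to Ciita, the 9 tested genes had a median of 0.01. Ifng itself had 1 read in TG2 and 0 in the other libraries. Jak1, a kinase at its receptor, had 28.7 to 29.2 FPKM in WT and 25.9 to 30.4 FPKM in TG, and Usf1, a factor at 1 of the Ciita promoters, had 19.7 to 23.4 and 18.7 to 20.4 FPKM.

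Genes that set how long class II stays on the cell had a median log2 fold change of 0.04 over 6 genes. Cd83, which protects class II from ubiquitination, had 6.50 to 6.89 FPKM in WT and 5.96 to 6.11 FPKM in TG. All TG libraries lay below all WT libraries for Cd83, with a log2 fold change of -0.15, an unadjusted p of 0.0836 and an adjusted p of 0.789 (limma). The share of all genes with this order was not counted. Tmem176b, a membrane protein of presenting cells, had 9.66 to 12.5 and 10.9 to 13.9 FPKM. The ligands and coreceptors of surface Cd74 had a median of -0.13 over 4 genes. Mif, its ligand, had 139 to 200 FPKM in WT and 146 to 154 FPKM in TG, and Ddt, a homologue of Mif, had 7.12 to 7.45 and 5.40 to 8.37 FPKM. The co-stimulatory group had a median of 0.40 over 6 genes.

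**Figure D5:**
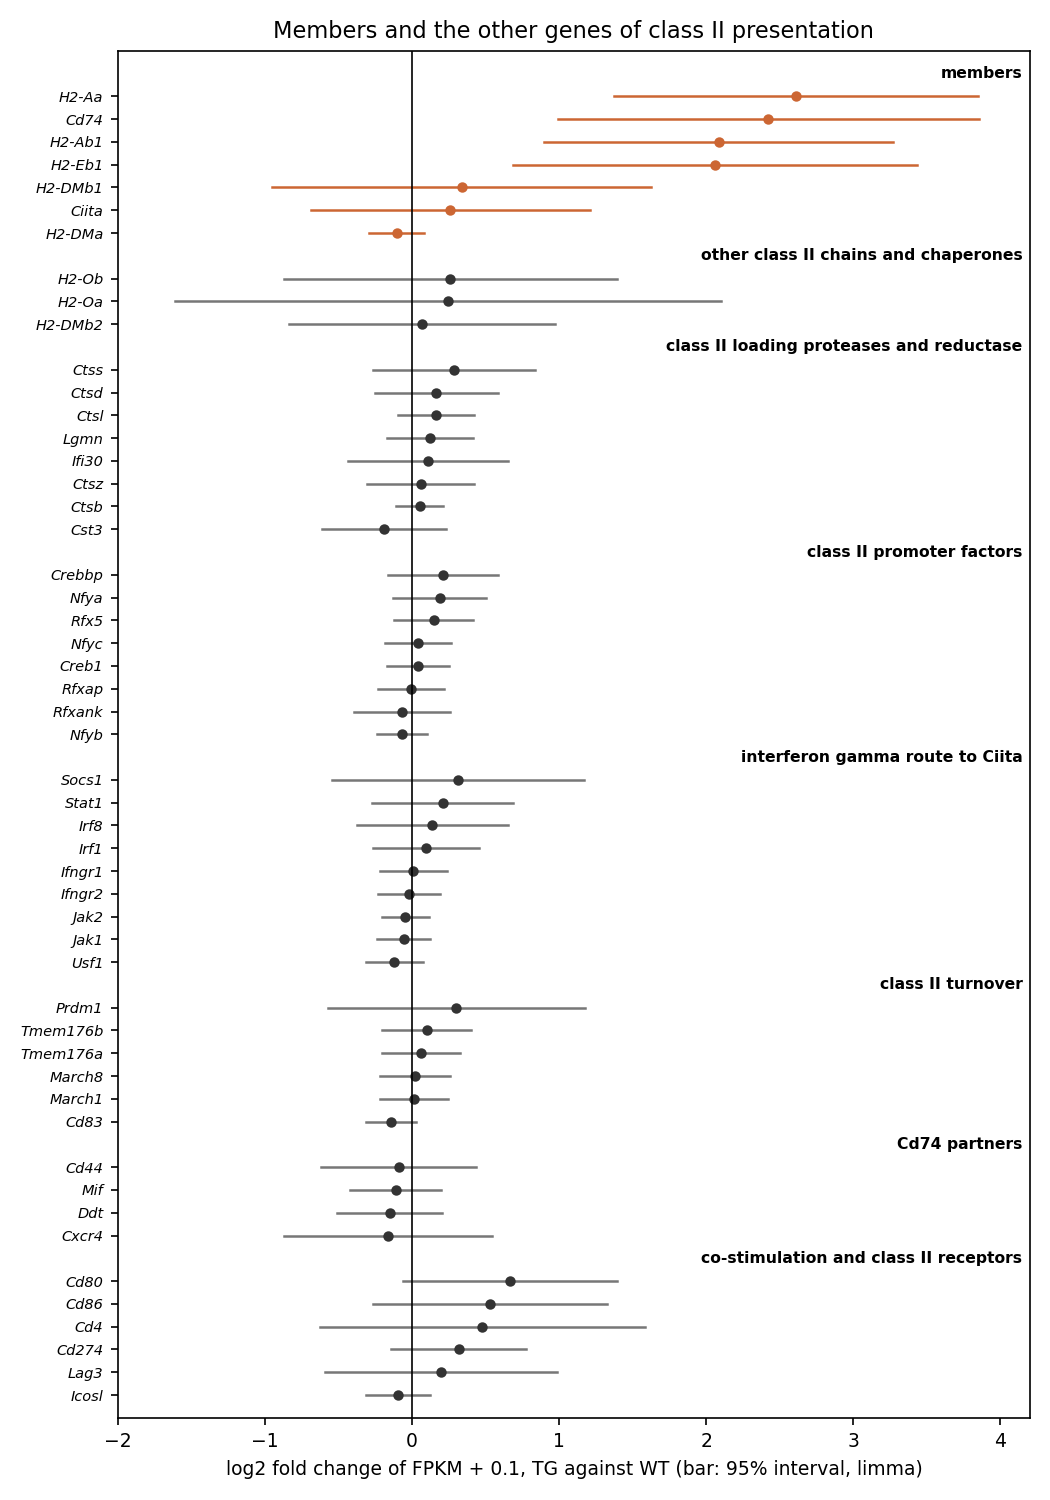
Log2 fold change of FPKM + 0.1, TG against WT, with its 95% limma interval for the 7 class II genes in orange and 44 other genes of class II presentation in black, by group. The intervals of H2-Aa, Cd74, H2-Ab1 and H2-Eb1 lie above 0, and those of the other 47 genes include 0.

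Of the 5 profiles most like that of the class II genes, 3 were class I genes. For each of 13319 genes whose mean FPKM reached 1, the centred log2 profile over the 6 libraries was set against the mean profile of the 6 class II genes other than Ciita, and the root mean square difference was taken. The nearest was H2-K1, a class I heavy chain, at 0.397, followed by the processed pseudogene Gm10705 (0.399), H2-D1 (0.406), H2-Q4 (0.409) and the miRNA gene Gm23726 (0.416). H2-K1 had 19.1, 12.4 and 15.1 FPKM in WT and 19.6, 47.9 and 32.8 FPKM in TG. TG1 was level with WT1 here too, and TG2 was highest. H2-D1, the second classical class I heavy chain of these mice, had 22.5, 17.8 and 18.2 FPKM in WT and 24.6, 57.3 and 45.4 FPKM in TG. H2-Q4, a nonclassical class I gene, had 1.55 to 2.96 FPKM in WT and 3.33 to 5.26 FPKM in TG. Gm10705 had 3.82 to 6.92 and 7.81 to 18.4 FPKM, and Gm23726 rested on 3 to 16 reads. Of the class II genes themselves, H2-Ab1 was closest to the mean profile (0.291) and H2-DMa farthest (1.01). That mean includes both DM chains. Cd74 (0.511) and H2-Aa (0.537) each had 15 of the compared genes nearer to it than they were. The log2 fold changes of H2-K1, H2-D1 and H2-Q4 were 1.03, 1.04 and 1.05, against 2.06 for H2-Eb1 and 2.61 for H2-Aa.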

How the data were processed

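RNA-seq of hippocampus from 3 WT and 3 TG samples was used. The authors counted reads per gene with HTSeq and deposited FPKM, 1 column per library; the submitters' processing notes name GRCm38 and mm10, and the aligner is not given in the sources used here. The methods name Trizol and a NEBNext Ultra kit, whereas the labels name RNeasy and SMARTer kits. Strand and the treatment of reads that match several genes are not stated.

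FPKM times gene length gave whole reads for 100% of values (tolerance 0.05 reads). These reads, 16081281 to 18751057 per library, were used for counting precision and for 1 alternative. The exact Poisson intervals of reads cover counting error only, whereas the limma intervals rest on the spread between libraries. The main test was limma 3.58.1 (R 4.3.3, lmFit, eBayes with trend) on log2(FPKM + 0.1), with a mean FPKM of at least 0.1, no covariate, no block, Benjamini-Hochberg adjustment and a threshold of 0.05. Single values were compared by exact 2-sided permutation tests. The method was run on simulated counts whose spread between libraries was smaller than that of Cd74 and the classical chains here. That run does not show how the method performs for genes of such spread. Python 3.11.15, numpy 2.4.6, pandas 2.3.3, scipy 1.17.1 and matplotlib 3.10.9 were also used.

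The genes, the pathway and marker lists and the tests were chosen with earlier results of these data known. Named genes are all 7 class II genes, in each pathway list the one of smallest p and the one of highest mean FPKM, in each marker list the one of highest mean FPKM, and the 5 nearest profiles. Markers that passed an unadjusted p of 0.05 and genes sharing sequence were added after their values were seen. So were Kcnj13, Kl, F5, Tmem72, Folr1, Krt8, Krt18, Itgax, Clec9a, Zbtb46, Batf3, Xcr1, Ccr7, Ccl22, Ms4a1, Pax5, Xist and Ifng. Results of some named genes are not reported here. Of the gene IDs, 54409 were found in GENCODE M21 and 53499 had the same start and end there. Among the 7 class II genes, only 2 had the same start and end there. Whether such differences between gene models alter the shares of sequence in common with other genes was not tested.

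Alternatives were other pseudocounts and filters, no variance trend, voom on the recovered reads, protein-coding genes only, a replicate block, leaving out each library, and leaving out TG1 and TG2 together. The choroid plexus score as a covariate was added after seeing the data.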

Additional observations from a re-analysis of the deposited data

How the results depend on the processing

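No class II gene passed an adjusted p of 0.05 in any of the 16 alternatives (limma). The number at an unadjusted p under 0.05 was 4, and 3 without TG1 and TG2 and with the choroid plexus score. In both cases H2-Eb1 no longer passed. The median log2 fold change lay between 1.46 (pseudocount of 1) and 2.55, and leaving out 1 library gave 1.58 to 2.55. With a replicate block, 4 genes passed at an unadjusted p under 0.05, 0 passed at an adjusted p and the median was 2.06, so the block changed no call. Deviations of same-numbered WT and TG libraries correlated at 0.0125, 0.0434 and 0.0031, and those of the other pairs at -0.0274 to 0.0159. The labels do not say what the numbers mean, and these values cannot show whether they mark a litter or batch. The sign of H2-DMb1 reversed without TG2, to -0.011 (unadjusted p = 0.986, limma), against 0.34 with all libraries, and it ran from -0.011 to 0.85 over the 6 left-out libraries. The cause was not tested. The number of genes with groups that did not overlap was 3 to 4 when libraries were left out. H2-Eb1 overlapped only through TG1 and WT1. Ciita was not in the fit with a mean FPKM of at least 1. Over all genes, 656 were higher and 582 lower at an unadjusted p under 0.05, against 334 and 375 with the choroid plexus score, 417 and 399 without TG1 and TG2, 440 and 418 without WT3, 526 and 375 without TG1 and 439 and 388 above a mean FPKM of 1. At an adjusted p, 2 genes passed, against 0 to 11 in the alternatives. Ciita rests on 16 to 49 reads and H2-DMb1 on 11 to 47 reads per library.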

Other observations

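The WT libraries were not alike in class II RNA. WT1 had the highest FPKM of the WT group for Cd74, H2-Aa, H2-Ab1, H2-Eb1 and H2-DMb1, with 5.06 FPKM of Cd74 against 2.99 in WT2 and 1.59 in WT3. Meningeal fibroblast markers, led by the matrix proteoglycan Dcn, were also highest there, with a sum of 40.6 FPKM in WT1 against 18.9 in WT2 and 16.5 in WT3. In the TG libraries that sum was 30.8, 21.5 and 28.8 FPKM in TG1 to TG3, lowest in TG2, where Cd74 was highest.

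Cathepsin S, the protease that trims Cd74 in presenting cells, was picked out after its values were seen. Ctss had 45.6, 42.3 and 55.3 FPKM in WT and 39.5, 76.5 and 64.2 FPKM in TG. TG2 and TG3 were above all WT libraries and TG1 was below them, and the log2 fold change was 0.29 (SE 0.235, unadjusted p = 0.259, limma).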
